A study of Mus musculus with 24 samples.

Results

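The platelet-derived and vascular endothelial growth factor genes and their receptors were followed through a CpG and carbon nanotube experiment in 2 mouse cell lines. The 10 genes were Pdgfa, Pdgfb, Pdgfc, Pdgfra, Pdgfrb, Vegfa, Vegfb, Vegfc, Flt1 and Hbegf, taken by symbol from the 21669 genes of the deposited read-count table. K-Luc is a luciferase-expressing derivative of the KR158B mouse glioma line, which came from C57BL/6 mice, and RAW-Blue is a RAW 264.7 macrophage line in which the transcription factors AP-1 and NF-kB drive a secreted alkaline phosphatase reporter. Each line was left untreated with water added (untreated), or received the oligonucleotide CpG-28 (CpG), single-walled carbon nanotubes dispersed with the lipid-PEG2000-OMe coating (SWNT/LP), both of these added together (CpG+SWNT/LP), or nanotubes that carried CpG directly on their surface (SWNT/CpG), with each component at 10 µg/mL after 24 h of adhesion. K-Luc had 2 untreated libraries and 3 for each treatment, and RAW-Blue had 2 libraries in every group, 24 in all. The labels' series title concerns tumour cell migration and immune activation, and the poly(A) RNA came from the cells of a migration assay in a 2-well insert.

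The design limits these comparisons in 4 ways. No group received an oligonucleotide without CpG. The SWNT/CpG preparation held no lipid-PEG, so a difference between SWNT/CpG and SWNT/LP or CpG+SWNT/LP combines the direct loading of CpG with the absence of that coating. K-Luc cells were incubated for 17 to 19 h and were plated inside and outside the insert, whereas RAW-Blue cells were incubated for 47 to 50 h and plated inside it only, so line, time and plating cannot be told apart. The labels do not say that replicates came from separate cultures, so the p-values measure only the spread between these libraries, which may be technical.

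PDGF ligands are dimers of related chains that activate the receptor tyrosine kinases encoded by Pdgfra and Pdgfrb. PDGF signalling is a well-known driver of glioma growth and, through Pdgfrb, of pericyte recruitment to vessels. VEGF-A is a hypoxia-inducible vessel growth factor that binds Flt1 and Kdr, VEGF-B binds Flt1, and VEGF-C acts mainly through Flt4. Flt1 is also carried by monocytes and macrophages, in which VEGF ligands act on movement. Hbegf encodes heparin-binding EGF-like growth factor, which is shed from the cell surface and binds Egfr and Erbb4.

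Total counts per library were 13318636 to 24130359 in K-Luc and 17186874 to 20256833 in RAW-Blue. The K-Luc libraries came from 2 sequencing runs: run 1 held 3 of them (replicate 1 of untreated, CpG+SWNT/LP and SWNT/CpG), and the run was a term in the K-Luc model. K-Luc replicate 1 stood apart from replicates 2 and 3 of its group (chi-square per degree of freedom between the gene counts of 2 libraries 8.31 to 15.2, against 2.71 to 3.57 between replicates 2 and 3). The RAW-Blue untreated pair differed more than any other RAW-Blue pair (45.8 against 1.99 to 6.05), so the RAW-Blue counts below are also given without each untreated library. Macrophage markers matched the RAW-Blue label, with 10 of 10 above 1 CPM (counts scaled to the library total) in every RAW-Blue library and summed levels of 4060 to 4593 CPM against 3.30 to 6.16 in K-Luc. Of a glial and neural progenitor list, only 3 of 9 genes were above 1 CPM in every K-Luc library. These were Nes (161 to 239 CPM), Sox2 (89.7 to 141 CPM) and Vim (5014 to 5982 CPM), the last also high in RAW-Blue (1555 to 1983 CPM). Fabp7 (0.108 to 1.11 CPM), Slc1a3 (0.738 to 1.96), Aldh1l1 (0.0466 to 1.94) and S100b (0 to 0.295) were low in K-Luc. There the astrocyte gene Gfap stayed at or below 0.512 CPM and the oligodendrocyte lineage gene Olig2 was at 0. Endothelial markers summed to 2.98 to 4.91 CPM in K-Luc, with Cldn5 at 0.

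Per gene length, in the authors' RPKM, Pdgfrb led the members in untreated K-Luc with 45.7 and 36.2 in the 2 libraries. Vegfb followed with 36.3 and 33.4, and the ranges of these 2 genes touched, since the higher Vegfb library exceeded the lower Pdgfrb library. Vegfa came next with 16.7 and 16.8 RPKM. Pdgfa (13.3 and 14.5), Pdgfc (12.9 and 12) and Pdgfb (13 and 11.6 RPKM) were near each other: Pdgfa was above the other 2, and Pdgfc and Pdgfb overlapped. Hbegf, Pdgfra, Flt1 and Vegfc filled the lower end, from 9 and 8.4 for Hbegf down to 5.7 and 5 RPKM for Vegfc, without overlap between neighbours. In untreated RAW-Blue the highest were Vegfb (35.2 and 29.3) and Pdgfb (32 and 26.5), which overlapped, and then Vegfa (16.8 and 22.4 RPKM), below both. Flt1 was at 6.1 and 5.5, Pdgfa at 2.6 and 3 and Vegfc at 1.2 and 1 RPKM in that line, without overlap between neighbours. Hbegf was at 0.6 and 0.6 and Pdgfrb at 0.1 and 0.1 RPKM, and Pdgfc and Pdgfra were listed at 0.

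**Figure D1:**
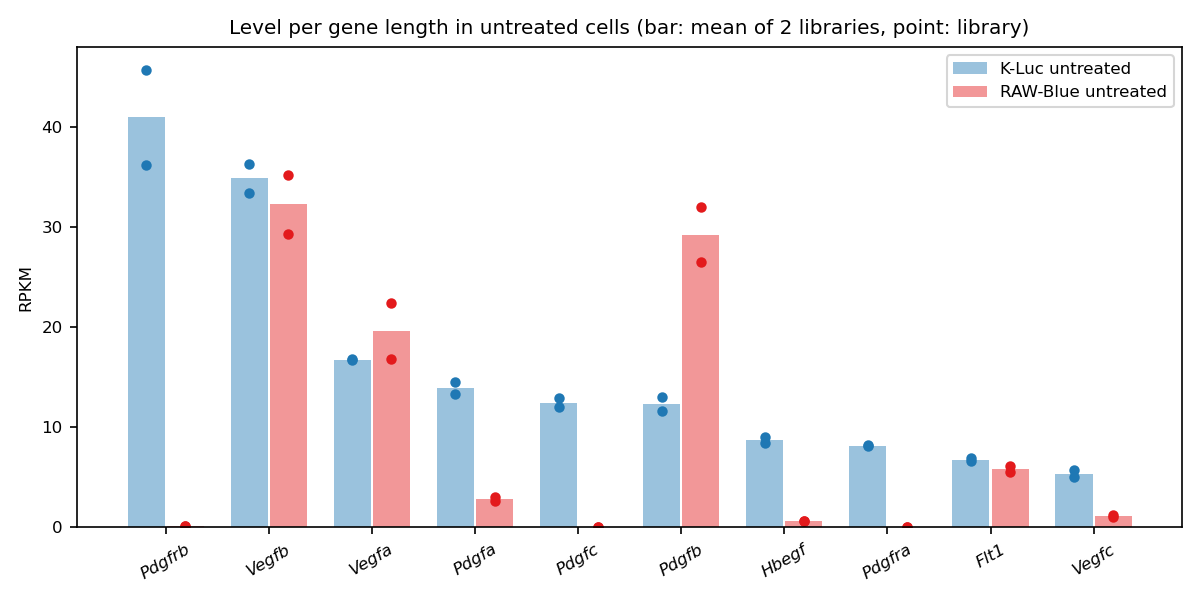
Untreated levels of the 10 genes in RPKM (length-scaled read counts from the authors) in K-Luc and RAW-Blue, with bars at the mean of 2 libraries and points for the libraries. Pdgfrb, Pdgfc and Pdgfra stand in K-Luc only, at means of 40.95, 12.45 and 8.15 RPKM, against 0.1 or less in RAW-Blue.

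Both untreated groups were then compared per gene on counts, in a fit over both lines with edgeR's quasi-likelihood test and Benjamini-Hochberg adjustment over 13350 genes; a gene was called at an adjusted p below 0.05, as in all comparisons below. Of the 10 members 9 were called, 2 higher and 7 lower in RAW-Blue (77.9% of all genes called, 37% higher and 40.9% lower). Pdgfb was higher in RAW-Blue by 1.34 ± 0.11 (adjusted p = 6.94e-11) on the log2 scale and Vegfa by 0.36 ± 0.11 (adjusted p = 0.00422). Among those lower were Hbegf, by a log2 difference of -3.79 ± 0.19 (adjusted p = 6.62e-14), Pdgfa at -2.25 ± 0.13 (adjusted p = 1.83e-13) and Vegfc at -2.15 ± 0.19 (adjusted p = 2.34e-10). Flt1 differed little, at -0.19 ± 0.09 (adjusted p = 0.0497), and Vegfb, at 0.084 ± 0.11 (adjusted p = 0.506), was not called. The Vegfa call ended without K-Luc untreated replicate 2, or RAW-Blue untreated replicate 2 (adjusted p 0.0926 to 0.321, log2 value 0.10 to 0.31), and the Flt1 call without K-Luc untreated replicate 1, or RAW-Blue untreated replicate 2 (adjusted p 0.13 to 0.238, log2 value -0.16 to -0.13); the first also ended with only the compared groups in the fit (adjusted p = 0.337) and the second with no run term, within run 2 and with only the compared groups in the fit (adjusted p 0.255 to 0.786). Pdgfc had 0 counts in both untreated RAW-Blue libraries and 2 counts over all 10 RAW-Blue libraries. Against a floor of 3 counts over the group, which is 0.0821 CPM, untreated K-Luc held at least 1148-fold more Pdgfc. Pdgfra had 10 counts over the 10 RAW-Blue libraries, 1 of them in the untreated group. Intervals and floors of this kind cover counting error only.

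In K-Luc the level of 9 of the 10 members differed among the 5 groups; at the same threshold 51.6% of all 12420 genes tested did. Vegfb was the exception (adjusted p = 0.255), though it was called without CpG replicate 1 and without all K-Luc replicate 1 libraries (adjusted p = 0.0215). The Pdgfra call ended without CpG+SWNT/LP replicate 1 or 3, or SWNT/CpG replicate 2 or 3 (adjusted p 0.0568 to 0.109), and with no run term and within run 2 (adjusted p 0.0547 to 0.0723); the Hbegf call ended without all K-Luc replicate 1 libraries (adjusted p = 0.0958). Against untreated cells, SWNT/CpG raised 7 members and lowered none (43.1% of all genes called, 21.8% higher and 21.3% lower); DESeq2 also called Hbegf lower, and a fit of only the compared groups Vegfb. CpG raised 4 and lowered 3 (36.2% of all genes called, 17.9% higher and 18.4% lower), and CpG+SWNT/LP raised 4 and lowered 2 (33.9% of all genes called, 16.1% higher and 17.8% lower). SWNT/LP changed 0 of the 10 by edgeR's test (0.129% of all genes called, 0.0886% higher and 0.0403% lower), with 2 members at an unadjusted p below 0.05 and 1 called by DESeq2. The members' median log2 fold change with SWNT/CpG was 0.38, beside 0.0097 for all genes tested, and with CpG it was 0.088 beside 0.012. The 4 comparisons share the same 2 untreated libraries. Each library was also left out alone, and a call is said to end without a library where its adjusted p then reached 0.05 or more. Run 2 held only 1 untreated library, and leaving out untreated replicate 2 reduced the members called from 7 to 2 with CpG (Vegfa and Hbegf), from 6 to 2 with CpG+SWNT/LP (Flt1 and Hbegf) and from 7 to 5 with SWNT/CpG. Within run 2 alone SWNT/CpG called 7 members, CpG 6 and CpG+SWNT/LP 3; run 1 held 1 library per group and gives no test.

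**Figure D2:**
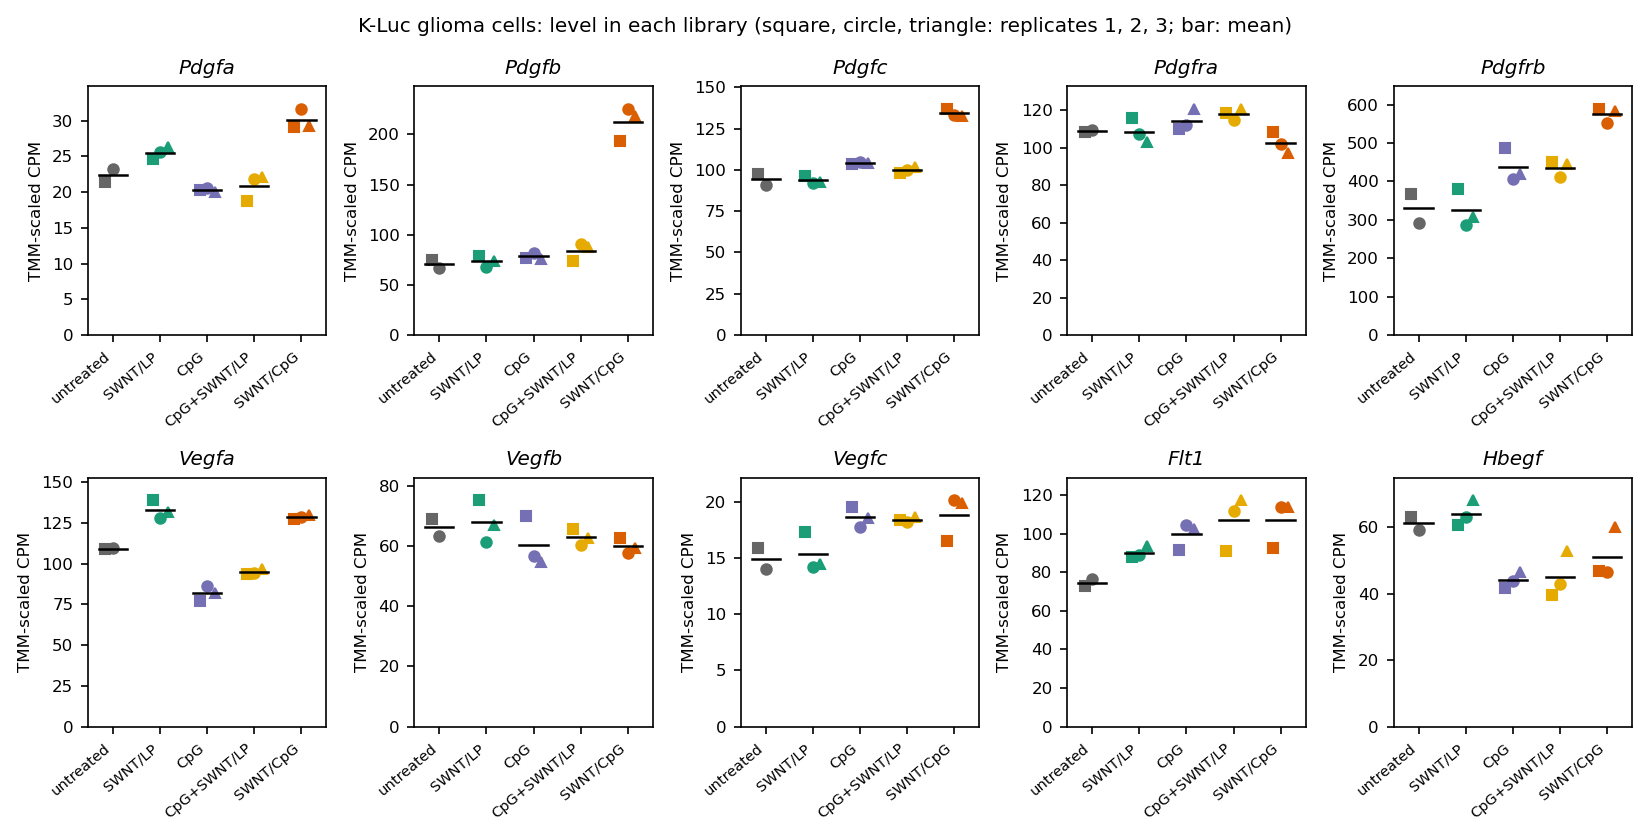
Level of each member in K-Luc in CPM scaled by TMM factors, 1 panel per gene and 1 column per group, with squares, circles and triangles for replicates 1, 2 and 3 and a bar at the group mean. Pdgfb in SWNT/CpG (193 to 226 CPM) lies above every other K-Luc library (67.0 to 90.7 CPM), and Vegfa is lowest with CpG and highest with SWNT/LP and SWNT/CpG.

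Pdgfb, the chain that forms the PDGF-BB dimer, had the largest response of the 10 members in K-Luc. Its level was 74.7 and 67.0 CPM in the untreated libraries, 77.1, 82.2 and 75.8 with CpG, 78.6, 67.7 and 73.5 with SWNT/LP and 74.3, 90.7 and 87.5 with CpG+SWNT/LP. With SWNT/CpG it was 193, 226 and 218 CPM, so all 3 libraries stood above all 11 others. SWNT/CpG raised it 2.96-fold over untreated, a log2 fold change of 1.57 ± 0.08 (adjusted p = 1.14e-09). It also exceeded CpG by 1.48 ± 0.07 (adjusted p = 1.79e-09), SWNT/LP by 1.58 ± 0.07 (adjusted p = 1.67e-10) and CpG+SWNT/LP by 1.34 ± 0.07 (adjusted p = 3.62e-09) on the log2 scale. All of these calls held when any 1 library was left out. CpG+SWNT/LP gave a log2 fold change of 0.23 ± 0.08 (adjusted p = 0.0377) over untreated, but the groups overlapped and the call ended without untreated replicate 2, CpG+SWNT/LP replicate 2 or 3, SWNT/LP replicate 3, or SWNT/CpG replicate 3 (adjusted p 0.0519 to 0.956, log2 value 0.011 to 0.23), and with no run term (adjusted p = 0.0618). CpG alone gave 0.084 ± 0.09 (adjusted p = 0.476), not called with all libraries, but called without untreated replicate 1, at 0.22 (adjusted p = 0.0444), and without all K-Luc replicate 1 libraries (adjusted p = 0.00877). Within run 2 alone the log2 fold change of Pdgfb with SWNT/CpG was 1.73 (adjusted p = 2.04e-07). In RPKM, Pdgfb moved from 13 and 11.6 in untreated cells to 34.1, 38.5 and 37.1 with SWNT/CpG.

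Pdgfa, which encodes the A chain, a ligand of Pdgfra, moved in opposite directions with the 2 forms of CpG. The untreated libraries held 21.4 and 23.3 CPM and the CpG libraries 20.3, 20.6 and 20.0 CPM. With SWNT/LP the level was 24.6, 25.6 and 26.3 CPM, and with SWNT/CpG 29.2, 31.7 and 29.2 CPM. The CpG libraries lay below both untreated libraries and the SWNT/CpG libraries above them, with no overlap. The log2 fold change was -0.21 ± 0.07 (adjusted p = 0.0384) with CpG and 0.40 ± 0.07 (adjusted p = 0.000243) with SWNT/CpG, and the difference of SWNT/CpG from CpG was 0.61 ± 0.06 (adjusted p = 7.15e-06). The fall with CpG ended as a call without untreated replicate 1 or 2, CpG replicate 1, 2 or 3, CpG+SWNT/LP replicate 1, or SWNT/CpG replicate 2 (adjusted p 0.0529 to 0.225, log2 value -0.22 to -0.18). It also ended in DESeq2, with no filter on low counts, with no run term, within run 2, without all K-Luc replicate 1 libraries and with only the compared groups in the fit (adjusted p 0.0663 to 0.219), while the rise with SWNT/CpG held in each of those fits. The CpG+SWNT/LP group (18.7, 21.9 and 22.1 CPM) overlapped the untreated range and was not called (adjusted p = 0.208).

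Pdgfc, a chain that needs proteolytic activation before it binds Pdgfra, was raised by SWNT/CpG and less by CpG. It stood at 97.4 and 91.1 CPM in untreated cells, 103, 105 and 104 with CpG, 97.8, 100.2 and 102 with CpG+SWNT/LP and 96.0, 91.9 and 92.8 with SWNT/LP. In SWNT/CpG it was 137, 133 and 132 CPM, above every other K-Luc library. SWNT/CpG raised it by 0.52 ± 0.05 (adjusted p = 2.4e-07) on the log2 scale over untreated, 1.43-fold. CpG raised it by 0.16 ± 0.05 (adjusted p = 0.0178), a call that ended without untreated replicate 2 (adjusted p = 0.414, log2 value 0.092) and with only the compared groups in the fit (adjusted p = 0.0784). The 3 PDGF chains among the members were thus higher with SWNT/CpG than with CpG, SWNT/LP or CpG+SWNT/LP, each difference called. These comparisons share the SWNT/CpG libraries, and the 9 calls held when any 1 library was left out. The remaining chain gene, Pdgfd, was placed on a list of other ligands. Of the 8 tested genes of that list, 0 were called higher with SWNT/CpG than with CpG or CpG+SWNT/LP, and 1 lower in each comparison. Of all genes 7.29% and 8.54% were called higher there, so 0 of 8 does not set the PDGF chains apart. Against SWNT/LP 2 of the 8 were higher and 4 lower (21.5% of all genes called higher and 20.2% lower).

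Of the PDGF receptors, Pdgfrb rose with every treatment that contained CpG, and Pdgfra changed little. Pdgfrb was 368 and 292 CPM in untreated cells and 381, 288 and 308 with SWNT/LP. It was 486, 405 and 419 CPM with CpG, 451, 412 and 444 with CpG+SWNT/LP and 589.8, 553 and 583 with SWNT/CpG. None of the 9 libraries with CpG overlapped the untreated or SWNT/LP libraries, and the SWNT/CpG libraries were the highest of all. Log2 fold changes over untreated were 0.48 ± 0.12 (adjusted p = 0.00802) with CpG, 0.43 ± 0.11 (adjusted p = 0.0105) with CpG+SWNT/LP and 0.83 ± 0.11 (adjusted p = 7.94e-05) with SWNT/CpG. The CpG call ended without untreated replicate 2 (adjusted p = 0.251, log2 value 0.31) and the CpG+SWNT/LP call without untreated replicate 2 (adjusted p = 0.246, log2 value 0.28), while the SWNT/CpG call held in all 14 such fits. SWNT/CpG exceeded CpG by 0.35 ± 0.10 (adjusted p = 0.0331), a call that ended without CpG replicate 2 or 3, CpG+SWNT/LP replicate 1, or SWNT/CpG replicate 2 or 3 (adjusted p 0.0542 to 0.142, log2 value 0.30 to 0.36), and with no filter on low counts (adjusted p = 0.0986).

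Marker lists of 2 mesenchymal cell types were also highest in SWNT/CpG. The summed level of a pericyte and smooth muscle list was 237 to 269 CPM in untreated cells, 270 to 282 with CpG, 273 to 286 with CpG+SWNT/LP, 244 to 297 with SWNT/LP and 360 to 371 with SWNT/CpG, in the TMM-scaled counts. Of its 9 genes 4 were above 1 CPM in every K-Luc library, mostly Cspg4 (154 to 284 CPM), whereas Rgs5 stayed at or below 0.396 CPM and Kcnj8 was at 0. A fibroblast list, with 4 of 7 genes above 1 CPM and dominated by Col1a1 (3606 to 8168 CPM), summed to 5054 to 6193 CPM in untreated, 4782 to 6194 in SWNT/LP, 8018 to 8845 in CpG, 7798 to 8491 in CpG+SWNT/LP and 9149 to 10136 CPM in SWNT/CpG. The part of these genes in the Pdgfrb result was not tested. In bulk RNA, fewer cells of a type and less RNA per cell cannot be told apart.

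Pdgfra stayed between 97.0 and 121 CPM over the 14 K-Luc libraries. It was called in no treatment against untreated (108 and 109 CPM). With SWNT/CpG (108, 102 and 97.0 CPM) the log2 fold change was -0.084 ± 0.06 (adjusted p = 0.278). SWNT/CpG was lower than CpG (109.7, 112 and 121 CPM) by a log2 difference of -0.18 ± 0.05 (adjusted p = 0.04), a call that ended without CpG replicate 2 or 3, CpG+SWNT/LP replicate 1 or 2, or SWNT/CpG replicate 2 or 3 (adjusted p 0.0553 to 0.231, log2 value -0.19 to -0.13) and with no run term and within run 2 (adjusted p 0.0618 to 0.0831). It was lower than CpG+SWNT/LP (118, 115 and 121 CPM), with a difference of -0.21 ± 0.05 (adjusted p = 0.0107) that ended as a call without CpG+SWNT/LP replicate 3, or SWNT/CpG replicate 3 (adjusted p 0.0684 to 0.0736, log2 value -0.18 to -0.17). Pdgfra was the 1 member called lower with SWNT/CpG in each of these 2 comparisons.

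Vegfa is the member for which upstream sequence bears most directly on a known form of control, since the hypoxia-response core ACGTG is a textbook feature of hypoxia-driven genes. RefSeq (GRCm38.p6, which is not the mm9 build of the counts) places the gene at chr17:46016993-46032377 on the minus strand and gives 2 transcript starts; Flt1 lies at chr5:147561604-147726438, also on the minus strand. The windows below are the 250 bases before each start, 5′ to 3′ on the gene's strand, in lower case with each match to ACGTG or GCGTG on either strand in capitals. The Flt1 window is also shown, since Flt1, like Vegfa, was called against untreated in K-Luc with CpG, CpG+SWNT/LP and SWNT/CpG. With CpG and CpG+SWNT/LP, however, Flt1 was higher and Vegfa lower. Vegfc was called in the same comparisons, but its window is not printed. The Flt1 window lies inside the span given for that gene, before an internal start.
Vegfa upstream start, chr17:46032378-46032627: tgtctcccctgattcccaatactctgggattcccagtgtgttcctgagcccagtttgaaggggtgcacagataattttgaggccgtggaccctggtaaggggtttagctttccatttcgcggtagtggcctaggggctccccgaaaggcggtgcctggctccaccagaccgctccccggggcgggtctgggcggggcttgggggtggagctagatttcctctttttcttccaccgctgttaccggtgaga
Vegfa internal start, chr17:46025164-46025413: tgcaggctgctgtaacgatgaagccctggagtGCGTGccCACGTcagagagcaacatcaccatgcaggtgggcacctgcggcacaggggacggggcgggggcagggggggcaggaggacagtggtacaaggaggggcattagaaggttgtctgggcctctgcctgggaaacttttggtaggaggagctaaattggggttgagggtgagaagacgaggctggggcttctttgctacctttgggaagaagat
Flt1, chr5:147726012-147726261: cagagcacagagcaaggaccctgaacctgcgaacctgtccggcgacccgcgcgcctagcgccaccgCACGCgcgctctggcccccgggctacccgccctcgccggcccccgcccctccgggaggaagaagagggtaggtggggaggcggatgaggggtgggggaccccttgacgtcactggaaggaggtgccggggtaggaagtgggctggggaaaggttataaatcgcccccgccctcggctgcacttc
The upstream Vegfa window held no match and the internal window held 2, in bases that overlap an annotated coding exon; the Flt1 window held 1. Over 32851 windows of 300 bases around RefSeq starts, 250 before and 50 after, 19.6% held ACGTG and 32.4% held GCGTG on either strand, and 43.8% held at least 1 of these. Of the windows not printed, that of Vegfb held 2 matches, 1 of the Pdgfa windows held 1, and those of Vegfc, Pdgfc and Pdgfra held 0. A match is a description of the letters and not a binding site. Sequence more than 250 bases before a start was not searched, so a window without a match does not show that the gene lacks one.

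Vegfa fell with CpG and CpG+SWNT/LP in K-Luc and rose with SWNT/CpG. Its levels were 109 and 109.7 CPM in untreated cells, 77.3, 86.6 and 82.2 with CpG and 93.5, 94.4 and 96.6 with CpG+SWNT/LP. With SWNT/LP they were 139, 128 and 132 CPM, and with SWNT/CpG 127, 129 and 129.8 CPM. The CpG and CpG+SWNT/LP libraries all lay below the untreated ones and did not overlap each other, and the libraries of both other groups all lay above. The log2 fold change was -0.43 ± 0.05 (adjusted p = 3.69e-05) with CpG, -0.21 ± 0.05 (adjusted p = 0.00579) with CpG+SWNT/LP and 0.23 ± 0.05 (adjusted p = 0.00193) with SWNT/CpG. The SWNT/CpG call ended without untreated replicate 2 (adjusted p = 0.0504, log2 value 0.22), and the CpG+SWNT/LP call without untreated replicate 2 (adjusted p = 0.0725, log2 value -0.22) and within run 2 (adjusted p = 0.0747). SWNT/LP gave 0.27 ± 0.05 (adjusted p = 0.0747), not called, but called without CpG replicate 1, at 0.27 (adjusted p = 0.0291), and in DESeq2 and with no filter on low counts (adjusted p 0.0135 to 0.0392). SWNT/CpG exceeded CpG by 0.66 ± 0.05 (adjusted p = 1.4e-07) and CpG+SWNT/LP by 0.44 ± 0.05 (adjusted p = 5.12e-06), and both held when any 1 library was left out. It differed from SWNT/LP by -0.041 ± 0.05 (adjusted p = 0.513), which was not called.

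Vegfb, a ligand of Flt1, ranged from 54.7 to 75.4 CPM in K-Luc and was called in none of the K-Luc comparisons in edgeR's fit over all 14 libraries. The log2 fold change with SWNT/CpG was -0.12 ± 0.10 (adjusted p = 0.32), called with only the compared groups in the fit (adjusted p = 0.0269), and that with CpG was -0.077 ± 0.10 (adjusted p = 0.592), called without all K-Luc replicate 1 libraries (adjusted p = 0.0318). SWNT/CpG against SWNT/LP gave -0.21 ± 0.09 (adjusted p = 0.0664), called in DESeq2 (adjusted p = 0.0472) and without CpG replicate 1 or 3 or SWNT/LP replicate 2. Vegfc, the lymphatic growth factor, was 15.9 and 14.1 CPM in untreated cells and 17.4, 14.2 and 14.5 with SWNT/LP. It was 19.6, 17.8 and 18.6 CPM with CpG, 18.4, 18.2 and 18.7 with CpG+SWNT/LP and 16.5, 20.2 and 20.0 with SWNT/CpG. All 9 libraries with CpG lay above both untreated libraries. Log2 fold changes were 0.31 ± 0.11 (adjusted p = 0.0403), 0.31 ± 0.10 (adjusted p = 0.0327) and 0.35 ± 0.11 (adjusted p = 0.0141) in that order. The calls ended, in the same order, without untreated replicate 2, CpG replicate 1 or 3, or CpG+SWNT/LP replicate 1, 2 or 3 (adjusted p 0.057 to 0.736, log2 value 0.10 to 0.31), without untreated replicate 2, or CpG+SWNT/LP replicate 1, 2 or 3 (adjusted p 0.0546 to 0.628, log2 value 0.12 to 0.32) and without untreated replicate 2, or SWNT/CpG replicate 2 (adjusted p 0.0519 to 0.463, log2 value 0.17 to 0.31). The CpG call also ended in DESeq2 (adjusted p = 0.0684), and the CpG+SWNT/LP call in DESeq2 and within run 2 (adjusted p 0.0504 to 0.0545). SWNT/CpG was not called against CpG, at 0.045 ± 0.09 (adjusted p = 0.807).

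Flt1, the VEGF receptor that also binds VEGF-B, rose with CpG in every form. It was 72.7 and 76.4 CPM in untreated K-Luc cells, 91.7, 105 and 103 with CpG, 91.1, 112 and 117 with CpG+SWNT/LP and 92.8, 114 and 114 with SWNT/CpG. SWNT/LP gave 88.1, 88.9 and 93.6 CPM. All 12 treated libraries were above both untreated libraries. Log2 fold changes were 0.30 ± 0.07 (adjusted p = 0.00393) with CpG, 0.48 ± 0.07 (adjusted p = 8.92e-05) with CpG+SWNT/LP and 0.48 ± 0.07 (adjusted p = 3.29e-05) with SWNT/CpG, and 0.16 ± 0.07 (adjusted p = 0.964) with SWNT/LP, which was not called. The CpG call ended without untreated replicate 2 (adjusted p = 0.36, log2 value 0.14), and the other 2 calls held in all 14 fits without 1 library. Flt1 was also the only member with a called sequencing-run term (log2 difference -0.25, adjusted p = 0.006), and replicate 1 was its lowest library in all 4 treatment groups, including CpG and SWNT/LP, whose replicate 1 came from run 2. SWNT/CpG was not called against CpG+SWNT/LP, at 0.0018 ± 0.06 (adjusted p = 0.989); its difference from CpG, 0.18 ± 0.06 (adjusted p = 0.0494), came with overlapping groups and ended without CpG replicate 1 or 3, CpG+SWNT/LP replicate 1, 2 or 3, SWNT/LP replicate 3, or SWNT/CpG replicate 1, 2 or 3 (adjusted p 0.0504 to 0.178, log2 value 0.13 to 0.20), and in DESeq2, with DESeq2 size factors, with no run term and with only the compared groups in the fit (adjusted p 0.0526 to 0.551).

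Hbegf fell with CpG and CpG+SWNT/LP in K-Luc, and its lower level with SWNT/CpG was called in some fits only. It was 63.1 and 59.3 CPM in untreated cells, 41.6, 43.9 and 46.5 with CpG and 39.7, 42.8 and 52.8 with CpG+SWNT/LP. With SWNT/LP it was 60.8, 63.0 and 68.1 CPM, and with SWNT/CpG 46.9, 46.4 and 60.0 CPM. The CpG and CpG+SWNT/LP libraries lay below the untreated ones, and 1 of the 3 SWNT/CpG libraries overlapped them. The log2 fold change was -0.54 ± 0.12 (adjusted p = 0.00364) with CpG, -0.46 ± 0.11 (adjusted p = 0.00705) with CpG+SWNT/LP and -0.28 ± 0.11 (adjusted p = 0.0654) with SWNT/CpG. The last was called in DESeq2 (adjusted p = 0.0294), without CpG+SWNT/LP replicate 3, at -0.27 (adjusted p = 0.0415), or SWNT/CpG replicate 3, at -0.39 (adjusted p = 0.0103). The CpG+SWNT/LP call ended without untreated replicate 1, or CpG+SWNT/LP replicate 1 (adjusted p 0.0573 to 0.0988, log2 value -0.38 to -0.33), and within run 2, at -0.32 (adjusted p = 0.155). Without all 5 K-Luc libraries numbered replicate 1, an alternative chosen after seeing that they stood apart, the log2 fold changes of Hbegf were -0.39 (adjusted p = 0.159) with CpG and -0.31 (adjusted p = 0.245) with CpG+SWNT/LP, so both calls ended; this leaves 1 untreated library, assumed to vary like the other groups. Without those libraries Pdgfb was still raised by SWNT/CpG, by 1.73 (adjusted p = 1.05e-12), and Pdgfrb by 0.96 (adjusted p = 1.22e-10).

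**Figure D3:**
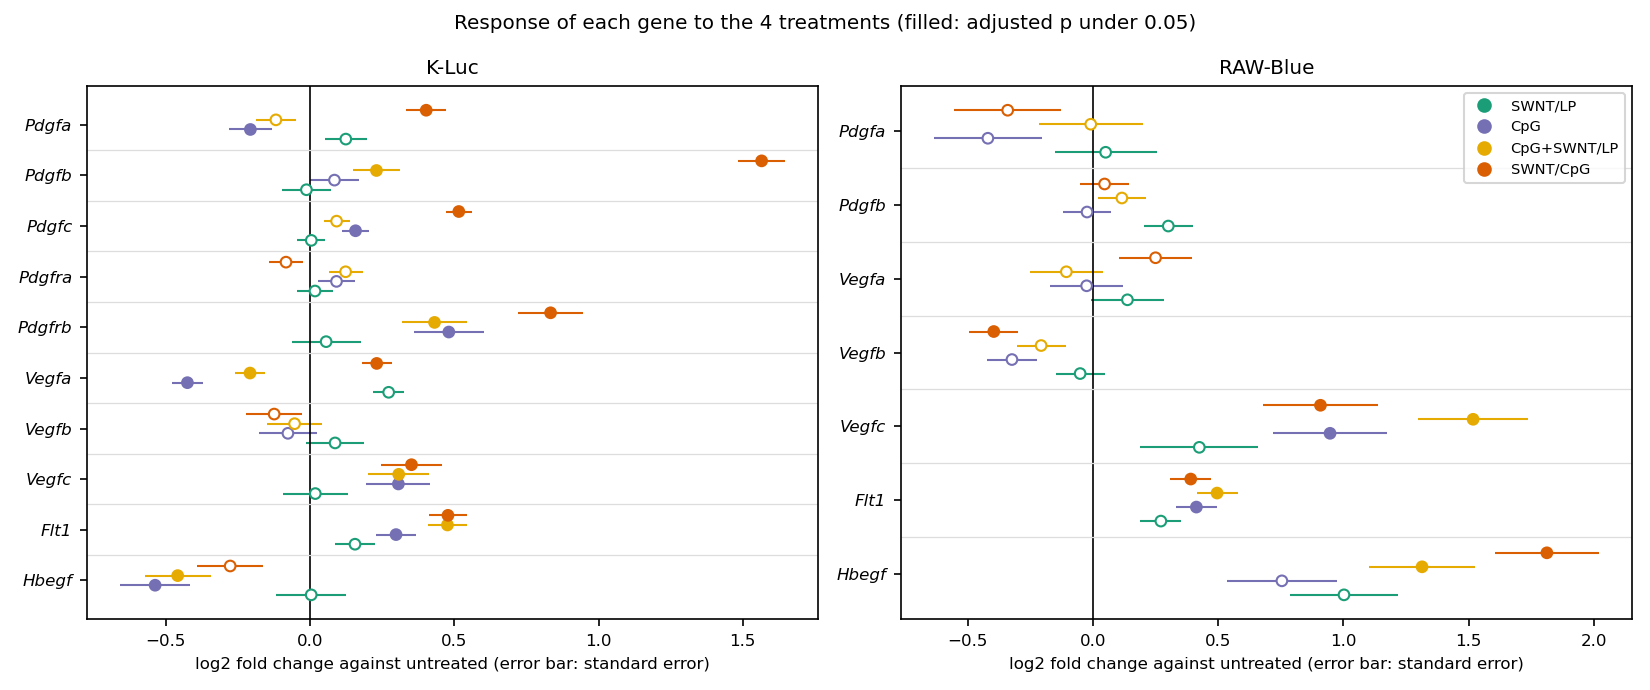
Log2 fold change over untreated, with its standard error, for each treatment in K-Luc (10 genes) and RAW-Blue (7 genes), filled where the adjusted p was below 0.05 by edgeR's quasi-likelihood test. Pdgfb with SWNT/CpG in K-Luc (1.57) and Hbegf with SWNT/CpG in RAW-Blue (1.81) are the highest points of the 2 lines.

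Between treatments in K-Luc, SWNT/CpG differed from CpG at 7 of the 10 members, 6 higher and 1 lower (14.9% of all genes called, 7.29% higher and 7.58% lower). It differed from SWNT/LP at 7, 6 higher and 1 lower (41.7% of all genes called, 21.5% higher and 20.2% lower), and from CpG+SWNT/LP at 6, 5 higher and 1 lower (17.7% of all genes called, 8.54% higher and 9.12% lower). Pdgfrb exceeded SWNT/LP by 0.78 ± 0.10 (adjusted p = 5.26e-05) and CpG+SWNT/LP by 0.40 ± 0.10 (adjusted p = 0.0116), the second ending as a call without CpG+SWNT/LP replicate 1 (adjusted p = 0.0639, log2 value 0.37). The member lower than in SWNT/LP was Hbegf, at -0.28 ± 0.10 (adjusted p = 0.0422), which ended as a call without untreated replicate 1 or 2, CpG replicate 2, SWNT/LP replicate 2 or 3, or SWNT/CpG replicate 1 or 2 (adjusted p 0.052 to 0.251, log2 value -0.29 to -0.17), and with no filter on low counts, within run 2, without all K-Luc replicate 1 libraries and with only the compared groups in the fit (adjusted p 0.0702 to 0.141). The count against CpG was 4 without CpG replicate 3, CpG+SWNT/LP replicate 1 or SWNT/CpG replicate 3. CpG+SWNT/LP differed from CpG at 0 members by edgeR's test (0.266% of all genes called, 0.0564% higher and 0.209% lower), with 2 at an unadjusted p below 0.05 and 1 called by DESeq2. The closest was Vegfa, at 0.22 ± 0.05 (adjusted p = 0.0876), called in DESeq2 (adjusted p = 0.0417) and without SWNT/LP replicate 1. The interaction of CpG with SWNT/LP was called for 0 members and 0% of all genes in edgeR, with 0 members at an unadjusted p below 0.05 and 0 called by DESeq2.

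Other genes of the same pathways were counted in 7 lists holding 98 genes, of which 90 were tested in K-Luc. With SWNT/CpG, 27 rose and 17 fell in K-Luc, 44 in all (43.1% of all genes called, 21.8% higher and 21.3% lower). Without untreated replicate 2 the pathway count was 29. The pathway genes had a median log2 fold change of 0.033 beside 0.0097 for all genes. Of 7 other receptors and coreceptors tested, 3 rose and 1 fell: the semaphorin and VEGF coreceptor Nrp2 rose (0.71 ± 0.06, adjusted p = 1.35e-07), as did the receptor-like gene Pdgfrl (1.80 ± 0.18, adjusted p = 2.24e-06), and the hyaluronan receptor Cd44 fell (-0.33 ± 0.08, adjusted p = 0.00541). The VEGF receptors Kdr and Flt4 were at 0 counts in untreated and SWNT/CpG K-Luc cells, so Flt1 was the VEGF receptor tyrosine kinase with reads there. Of 8 other ligands tested, 2 rose and 4 fell; the EGF-family ligands Areg (-1.95 ± 0.33, adjusted p = 0.000225), Btc (-1.13 ± 0.18, adjusted p = 0.000124) and Ereg (-0.96 ± 0.17, adjusted p = 0.000439) were among those that fell. Of 11 proteases and processing genes 6 rose and 1 fell; Plat, the tissue plasminogen activator that can activate PDGF-C, fell (-0.67 ± 0.09, adjusted p = 2.12e-05), and Adam12, a metalloprotease that sheds HB-EGF, rose (0.72 ± 0.10, adjusted p = 4.23e-05).

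Downstream of the receptors, 6 of 19 adaptor and effector genes rose with SWNT/CpG in K-Luc and none fell (43.1% of all genes called, 21.8% higher and 21.3% lower). The docking protein Gab1 was at 0.37 and the adaptor Shc1 at 0.34 on the log2 scale. Among 13 feedback genes 3 rose and 5 fell, with a median of -0.095 beside 0.0097 for all genes. The 3 with the smallest p were Lrig1 (0.78), Socs2 (0.80) and Spry1 (1.04), all inhibitors of receptor or cytokine signalling. These were the 3 that rose, and the 5 that fell are not named here. Among 14 target genes of ERK and serum response factor 2 rose and 5 fell, with a median of -0.31 beside 0.0097 for all genes; the ETS factors Etv5 (-0.86) and Etv4 (-0.89) and the AP-1 gene Fosl1 (-0.95) fell. With CpG alone, 1 of these 14 rose and 4 fell (36.2% of all genes called, 17.9% higher and 18.4% lower), Etv4 at -0.91 and Fosl1 at -0.75.

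The hypoxia list mixed regulators of the hypoxia pathway, such as Hif1a, Arnt and Vhl, with textbook targets of it. Vegfa is such a target, so only part of the list shares its known control. In K-Luc 18 genes of the list were tested. With SWNT/CpG 5 rose and 1 fell (43.1% of all genes called, 21.8% higher and 21.3% lower), with a list median of 0.047 beside 0.0097 for all genes. Ndrg1 led (0.84 ± 0.09, adjusted p = 1.61e-06), and the prolyl hydroxylase Egln3 fell (-0.73). With CpG 4 rose and 6 fell (36.2% of all genes called, 17.9% higher and 18.4% lower). With SWNT/LP, where 0.129% of all genes were called, 2 of the 18 rose, the mitophagy gene Bnip3 (0.69 ± 0.08, adjusted p = 0.00122) and the metabolic kinase Pdk1 (0.60 ± 0.07, adjusted p = 0.00123), with a list median of 0.23 beside -0.0025 for all genes. Between SWNT/CpG and CpG, 8 of the 18 were higher with SWNT/CpG and 2 lower (14.9% of all genes called, 7.29% higher and 7.58% lower). Those higher included the collagen prolyl hydroxylase P4ha1 (0.23) and the glucose transporter Slc2a1 (0.23) on the log2 scale. Between SWNT/CpG and SWNT/LP 2 of the 18 were higher with SWNT/CpG and 8 lower, with a median of -0.13 beside 0.0073 for all genes (41.7% of all genes called, 21.5% higher and 20.2% lower). Against CpG the median was 0.19 beside -0.0081 for all genes.

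In RAW-Blue 8 of the 10 members passed the filter on low counts, and 4 of these (Pdgfrb, Vegfc, Flt1 and Hbegf) differed among the 5 groups, where 16.4% of 11514 genes tested did. Pdgfc and Pdgfra did not pass. Pdgfrb passed only through the untreated group, with 10 and 15 counts there against 0 to 5 in each treated library, so it had to differ and its calls are included in the counts but support nothing. CpG raised 2 members (10.8% of all genes called, 5.18% higher and 5.6% lower). CpG+SWNT/LP raised 3 and lowered 1 (20.3% of all genes called, 10.1% higher and 10.1% lower), and SWNT/CpG raised 3 and lowered 1 (23.2% of all genes called, 12.8% higher and 10.4% lower). SWNT/LP changed 0 by edgeR's test (0.478% of all genes called, 0.434% higher and 0.0434% lower), with 4 at an unadjusted p below 0.05 and 1 called by DESeq2. The untreated libraries decide part of these counts. Counts over all genes also moved widely when 1 library was left out, as given at the end, so the moves below are not particular to the members. Without untreated replicate 1 or 2, the members called were 2 and 4 with CpG, 2 and 3 with SWNT/LP, 5 and 5 with CpG+SWNT/LP, and 4 and 5 with SWNT/CpG. Among the 5 groups they were 7 and 6.

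**Figure D4:**
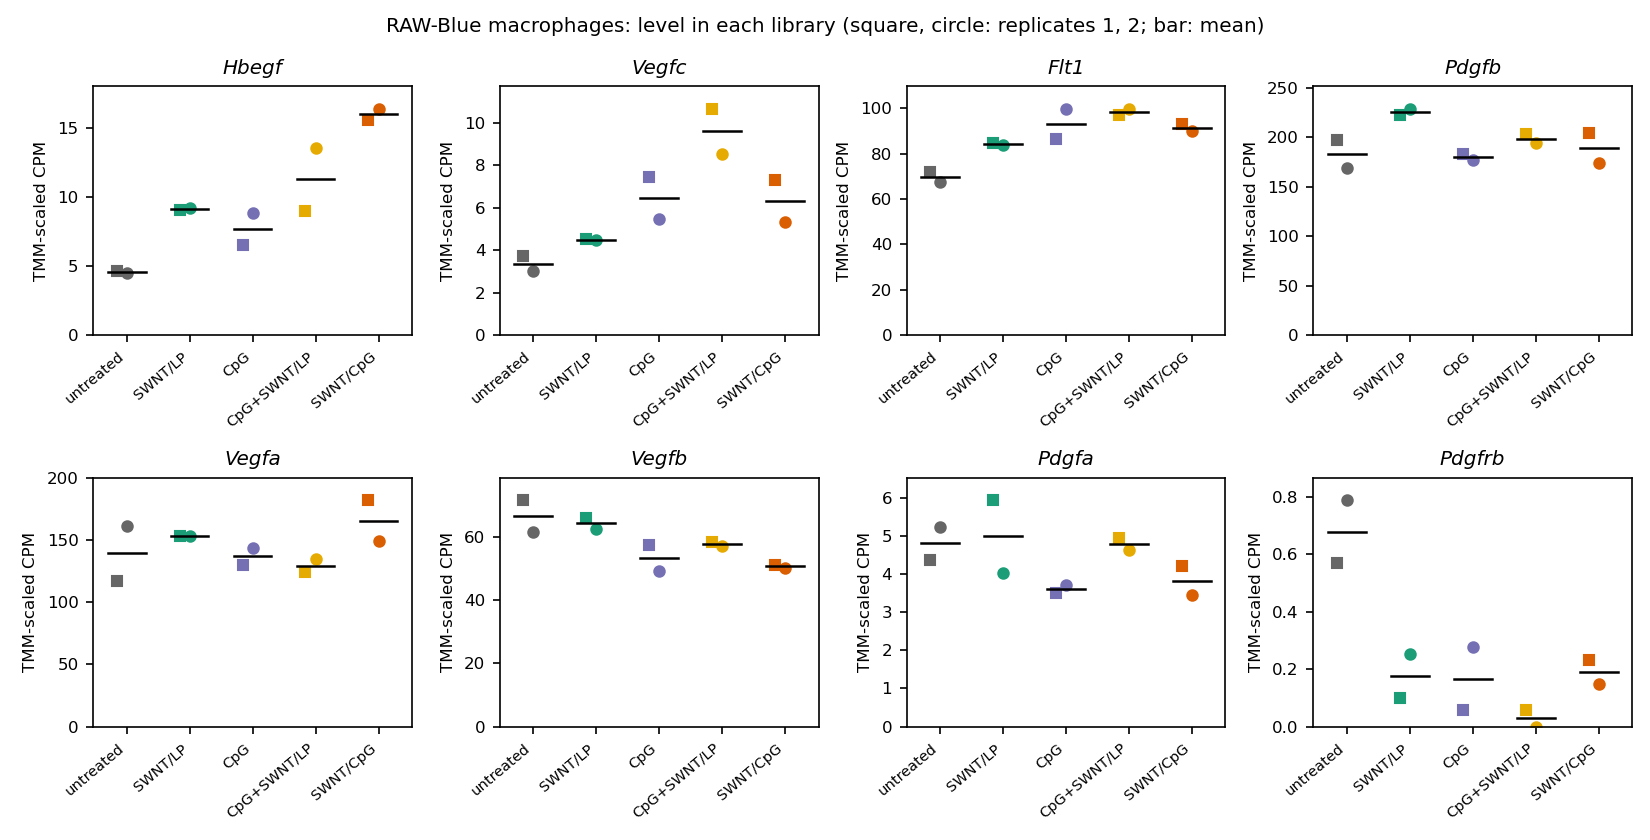
Level of 8 members in RAW-Blue in CPM scaled by TMM factors, 1 column per group, with squares and circles for replicates 1 and 2 and a bar at the mean. Hbegf lies lowest in the untreated libraries (4.47 and 4.62 CPM) and highest with SWNT/CpG (15.5 and 16.4 CPM), while Pdgfb and Vegfa overlap between SWNT/CpG and untreated libraries.

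Hbegf, low in untreated macrophages, rose most of the members in RAW-Blue. It was 4.62 and 4.47 CPM in untreated cells, 6.53 and 8.80 with CpG and 9.06 and 9.16 with SWNT/LP. With CpG+SWNT/LP it was 8.97 and 13.6 CPM, and with SWNT/CpG 15.5 and 16.4 CPM. The SWNT/CpG libraries exceeded all 8 others, and every treated library exceeded both untreated ones. SWNT/CpG raised it 3.51-fold, a log2 fold change of 1.81 ± 0.21 (adjusted p = 0.000258), and CpG+SWNT/LP by 1.31 ± 0.21 (adjusted p = 0.00258). Both calls held when any 1 library was left out. CpG gave 0.75 ± 0.22 (adjusted p = 0.0566) and SWNT/LP 1.00 ± 0.21 (adjusted p = 0.106), neither called in the fit over all 10 libraries. Without untreated replicate 2 both were called, at 0.73 (adjusted p = 0.0428) and 0.98 (adjusted p = 0.0113). The CpG value was also called without CpG+SWNT/LP replicate 1, at 0.75 (adjusted p = 0.0309), without CpG+SWNT/LP replicate 2, at 0.75 (adjusted p = 0.0313), and in DESeq2 and with no filter on low counts (adjusted p 0.0224 to 0.0287). The SWNT/LP value was also called in DESeq2 and with no filter on low counts (adjusted p 0.00586 to 0.0117). SWNT/CpG exceeded CpG by 1.06 ± 0.19 (adjusted p = 0.0425), the only member called in that comparison (0.842% of all genes called, 0.669% higher and 0.174% lower), and the call ended without CpG replicate 1 or 2, SWNT/LP replicate 1 or 2, or SWNT/CpG replicate 1 or 2 (adjusted p 0.0888 to 0.453, log2 value 0.86 to 1.29). It exceeded SWNT/LP by 0.81 ± 0.19 (adjusted p = 0.0229), again the only member called (10.3% of all genes called, 6.3% higher and 4% lower), ending without SWNT/LP replicate 1 or 2, or SWNT/CpG replicate 1 or 2 (adjusted p 0.114 to 0.164, log2 value 0.78 to 0.85).

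Vegfc rose with CpG in every form in RAW-Blue. Its level was 3.71 and 3.00 CPM in untreated cells and 4.53 and 4.46 with SWNT/LP. It was 7.43 and 5.48 CPM with CpG, 10.7 and 8.55 with CpG+SWNT/LP and 7.28 and 5.35 with SWNT/CpG. All 6 libraries with CpG were above the untreated and SWNT/LP libraries, and CpG+SWNT/LP was the highest group. Log2 fold changes were 0.95 ± 0.23 (adjusted p = 0.0278) with CpG, 1.52 ± 0.22 (adjusted p = 0.00137) with CpG+SWNT/LP and 0.91 ± 0.23 (adjusted p = 0.0179) with SWNT/CpG. The CpG+SWNT/LP call held in every fit without 1 library. The CpG call ended without CpG replicate 1, or SWNT/LP replicate 1 or 2 (adjusted p 0.0544 to 0.198, log2 value 0.71 to 0.95) and the SWNT/CpG call without SWNT/CpG replicate 1 (adjusted p = 0.146, log2 value 0.67). With only the compared groups in the fit the CpG value was 0.95 (adjusted p = 0.157) and the SWNT/CpG value 0.89 (adjusted p = 0.081).

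Flt1 rose in the macrophage line too, from 71.9 and 67.7 CPM in untreated macrophages to 86.2 and 99.6 with CpG, 96.9 and 99.8 with CpG+SWNT/LP and 93.0 and 90.0 with SWNT/CpG. SWNT/LP gave 84.5 and 84.0 CPM. All 8 treated libraries exceeded both untreated libraries. The log2 fold change was 0.41 ± 0.08 (adjusted p = 0.0129) with CpG, 0.50 ± 0.08 (adjusted p = 0.00295) with CpG+SWNT/LP and 0.39 ± 0.08 (adjusted p = 0.00747) with SWNT/CpG, and 0.27 ± 0.08 (adjusted p = 0.24) with SWNT/LP, which was not called. The CpG call ended without CpG replicate 2 (adjusted p = 0.119, log2 value 0.30) and the SWNT/CpG call without SWNT/CpG replicate 1 (adjusted p = 0.0726, log2 value 0.36). With only the compared groups in the fit all 3 calls ended, at 0.41 (adjusted p = 0.22), 0.50 (adjusted p = 0.0679) and 0.37 (adjusted p = 0.103).

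Vegfb fell with SWNT/CpG in RAW-Blue, from 71.6 and 61.7 to 51.0 and 50.3 CPM without overlap, a log2 fold change of -0.40 ± 0.10 (adjusted p = 0.0168) that ended as a call without SWNT/CpG replicate 1 or 2 (adjusted p 0.0899 to 0.0987, log2 value -0.41 to -0.38), and with only the compared groups in the fit (adjusted p = 0.104). It was 57.5 and 49.1 CPM with CpG, 58.3 and 57.1 with CpG+SWNT/LP and 66.1 and 62.6 with SWNT/LP, none of them called; without untreated replicate 2 the CpG value was called, at -0.43 (adjusted p = 0.000829), and CpG+SWNT/LP as well. The CpG value was also called with no filter on low counts (adjusted p = 0.0409). Pdgfb, the member with the largest response in K-Luc, was 198 and 169 CPM in untreated RAW-Blue cells and 205 and 174 with SWNT/CpG, overlapping, with a log2 fold change of 0.046 ± 0.10 (adjusted p = 0.765). Its highest group was SWNT/LP (223 and 229 CPM), at 0.30 ± 0.10 (adjusted p = 0.269), not called, but called without untreated replicate 1, at 0.42 (adjusted p = 0.0114). Vegfa overlapped between untreated (117 and 162 CPM) and SWNT/CpG libraries (182 and 149.5 CPM), at 0.25 ± 0.15 (adjusted p = 0.253); without untreated replicate 2, the higher of that pair, it was called, at 0.50 (adjusted p = 0.00331). Pdgfa was 4.39 and 5.26 CPM in untreated and 4.22 and 3.45 in SWNT/CpG libraries, at -0.34 ± 0.21 (adjusted p = 0.284). SWNT/CpG against CpG+SWNT/LP called 0 members (0.825% of all genes called, 0.469% higher and 0.356% lower), with 3 at an unadjusted p below 0.05 and 0 by DESeq2, and 2 (Vegfa and Vegfc) called when either untreated library was left out. CpG+SWNT/LP against CpG called 0 (0.13% of all genes called, 0.122% higher and 0.00869% lower), with 2 and 0. The interaction called 0 members and 0% of all genes in edgeR, with 0 members at an unadjusted p below 0.05 and 0 by DESeq2. Without untreated replicate 2 the interaction called Vegfa, at -0.47 (adjusted p = 0.0359), and 2701 of all genes.

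Of the 98 pathway genes 73 were tested in RAW-Blue, and SWNT/CpG raised 23 and lowered 10, 33 in all (23.2% of all genes called, 12.8% higher and 10.4% lower). Leaving out untreated replicate 1 gave 40 and untreated replicate 2 gave 48, whereas the number fell to 19 without SWNT/CpG replicate 1 and to 18 with only the compared groups in the fit. The coreceptors Nrp1 (0.85) and Nrp2 (0.28) and Cd44 (0.38 on the log2 scale) were the 3 of 5 receptor genes that rose, and none fell. Of 9 processing genes 3 rose and none fell, including the urokinase gene Plau (0.63) and Rhbdf2 (0.83), a partner of the HB-EGF-shedding protease complex. Of 14 ERK and serum response factor targets 6 rose and 2 fell, with a median of 0.43 beside 0.0023 for all genes; Myc (3.11 ± 0.16, adjusted p = 3.86e-06) and Phlda1 (3.00 ± 0.18, adjusted p = 6.21e-06) led, and Fosl1 was at 1.93. Of 10 feedback genes 5 rose and none fell, led by the ERK phosphatases Dusp5 (1.79 ± 0.13, adjusted p = 1.8e-05) and Dusp6 (1.01). Of 17 adaptors and effectors 4 rose and 2 fell, the kinase Src at 1.41. Of 16 hypoxia genes 2 rose and 6 fell; the vasodilator peptide gene Adm (-0.93), Ankrd37 (-1.33) and Bnip3 (-0.51) fell. Egfr, a receptor for HB-EGF, stayed at or below 0.111 CPM in every RAW-Blue library, against a mean of 22.1 CPM in untreated K-Luc.

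The responses of the 2 lines were compared directly in the fit over both lines. For SWNT/CpG, 4 of 10 members differed between lines, 1 higher and 3 lower in RAW-Blue (25.4% of all genes called, 14.4% higher and 11.1% lower). The response of Pdgfb was lower in RAW-Blue by a log2 difference of -1.52 ± 0.13 (adjusted p = 2.74e-08) and that of Pdgfa by -0.75 ± 0.19 (adjusted p = 0.00503), while that of Hbegf was higher by 2.09 ± 0.24 (adjusted p = 2.06e-06). Pdgfb rose in K-Luc and was not called in RAW-Blue, whereas Hbegf rose in RAW-Blue and was lower in K-Luc, where the call depended on the fit. For CpG alone 2 of 10 differed, 1 higher and 1 lower (21.9% of all genes called, 11.3% higher and 10.6% lower), and Hbegf was again higher, by 1.28 ± 0.26 (adjusted p = 0.00159). The Pdgfb and both Hbegf differences held in all fits without 1 library, and the Pdgfa difference ended as a call without RAW-Blue SWNT/CpG replicate 2 (adjusted p = 0.052, log2 value -0.62). Pdgfrb was the other member called in both comparisons, through the low RAW-Blue counts given above, and its calls ended when either untreated RAW-Blue library was left out. For Flt1 the response difference was -0.087 ± 0.11 (adjusted p = 0.643) with SWNT/CpG and 0.10 ± 0.11 (adjusted p = 0.608) with CpG, neither called.

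**Figure D5:**
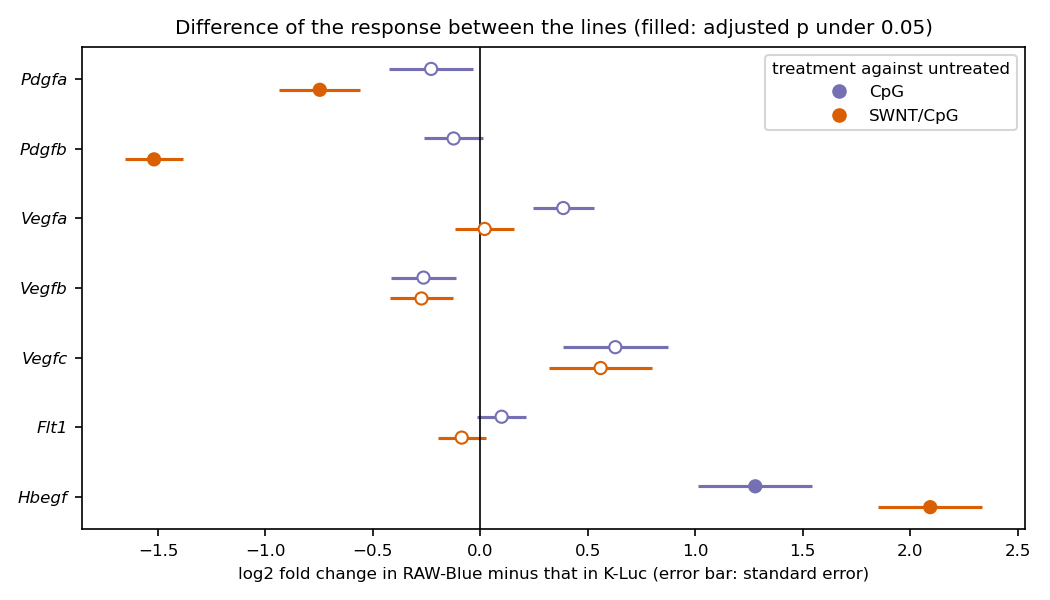
Log2 fold change in RAW-Blue minus that in K-Luc, with its standard error, for CpG and SWNT/CpG and 7 members. Hbegf lies above 0 for both treatments (1.28 and 2.09), and Pdgfb lies at -1.52 for SWNT/CpG and at -0.12 for CpG.

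Genes whose log2 CPM followed a member most closely were listed for 2 members per line, as a description. In K-Luc, over 14 libraries, Pdgfb was followed by Ext1 (r = 0.988), Wisp1 (r = 0.980) and Ebp (r = 0.977), and Vegfa by Map2k1 (r = 0.969), Sc5d (r = 0.950) and Atf4 (r = 0.933). In RAW-Blue, over 10 libraries, Hbegf was followed by Isg15 (r = 0.978), Atp11a (r = 0.977) and Ppt1 (r = 0.976), and Vegfc by Mtfr1 (r = 0.977), Fgfbp3 (r = 0.972) and Itga5 (r = 0.969). The libraries of a group share a treatment, so these values of Pearson's r also carry the differences between groups.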

How the data were processed

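Poly(A) RNA of 24 libraries was measured with a stranded mRNA kit, per the labels' protocols. The authors deposited read counts per gene; the submitters' processing notes name the mm9 build, HTSeq 0.6.0 and TopHat2 2.0.14, with no annotation, strand setting or filter. The deposited RPKM values, rounded by the authors to 1 decimal, were used only to compare levels between genes.

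Counts were tested with edgeR 4.0.16 in R 4.3.3 (TMM factors, filterByExpr with a minimum count of 10 and a minimum total of 15, robust quasi-likelihood F test, Benjamini-Hochberg adjustment over all genes tested, threshold 0.05). All 5 groups of a line entered 1 fit: K-Luc with the sequencing run as a term (12420 genes, 8 residual degrees of freedom), RAW-Blue without (11514 genes, 5), and both lines together for differences between them (13350 genes, 13). The test was checked on simulated counts. No row of the table lacked a gene name. CPM are TMM-scaled within a line. All 10 members are reported; of other pathway genes up to 3 per list with the smallest adjusted p, and the 3 genes most correlated (log2 CPM, prior count 2) with the 2 members of smallest p per line, were named. The members and lists were chosen with earlier results of these data known.

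Alternatives were no filter on low counts, DESeq2 1.42.0 as the test or for its size factors alone, the replicate number as a block, run 2 alone, only the compared groups, and each library left out; the fits without the run term and without all K-Luc replicate 1 libraries were added after seeing the data. Upstream sequences came from RefSeq (GRCm38.p6), with all windows of chromosome 18 left out before matching. The windows kept matched 7 of the 10 members. Pdgfrb and Hbegf lie on chromosome 18, so their windows were not looked at. Pdgfb had no entry.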

Additional observations from a re-analysis of the deposited data

Results flagged for a closer look

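The response to treatment differed between the 2 lines by the test of the difference itself (edgeR's quasi-likelihood test, fit over both lines) in 6 cases. For SWNT/CpG these were Pdgfb, with a log2 difference of -1.52 ± 0.13 (adjusted p = 2.74e-08) (RAW-Blue minus K-Luc), Pdgfa with -0.75 ± 0.19 (adjusted p = 0.00503) and Hbegf with 2.09 ± 0.24 (adjusted p = 2.06e-06). For CpG it was Hbegf with 1.28 ± 0.26 (adjusted p = 0.00159). Pdgfrb was the remaining case for both treatments, at -2.67 with SWNT/CpG and -2.49 with CpG; these fitted values rest on 10 and 15 counts in the untreated RAW-Blue libraries against 0 to 5 in the treated ones and are no measure of size. Incubation time and plating also differed between the lines and cannot be told apart from them.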

How the results depend on the processing

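No called value changed direction under any alternative that was run. Values that were not called did change sign in places when 1 library was left out. For example, Pdgfb with CpG in K-Luc moved from 0.084 to -0.16 without untreated replicate 2. Vegfa with CpG in RAW-Blue, at -0.025 with all libraries, ranged from -0.24 to 0.22. The counts of members called moved by more than 1.5 times as follows. In K-Luc, SWNT/LP against untreated called 1 member in DESeq2, with no filter and with the replicate block (0 in the report), CpG+SWNT/LP against CpG called 1 in DESeq2 and with the replicate block (0 in the report), and CpG+SWNT/LP against untreated called 3 within run 2 (6 in the report). In RAW-Blue, SWNT/LP against untreated called 1 in DESeq2 and with no filter (0 in the report). CpG against untreated called 4 with no filter or the replicate block and 0 with only the compared groups (2 in the report). SWNT/CpG called 2 against SWNT/LP with no filter or the replicate block and 4 with only the compared groups (1 in the report), 1 against untreated with only the compared groups (4 in the report), and 1 against CpG+SWNT/LP with only the compared groups (0 in the report). The CpG response called 4 between lines with no filter (2 in the report). Leaving out 1 library gave, in K-Luc, 2 to 7 members with CpG, 0 to 1 with SWNT/LP, 2 to 6 with CpG+SWNT/LP and 5 to 8 with SWNT/CpG against untreated. SWNT/CpG called 4 to 7 against CpG, and CpG+SWNT/LP 0 to 1 against CpG. In RAW-Blue it gave 2 to 7 among all groups, 1 to 4 with CpG, 0 to 3 with SWNT/LP, 3 to 5 with CpG+SWNT/LP and 1 to 5 with SWNT/CpG. There SWNT/CpG called 0 to 1 against CpG, 0 to 3 against SWNT/LP and 0 to 2 against CpG+SWNT/LP, and the interaction 0 to 1. Between lines the CpG response called 1 to 3. Where this left 1 untreated or treated library, that library was assumed to vary like the other groups. The causes were not tested, beyond the fewer samples in fits of fewer groups.

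Over all genes the counts also moved. In K-Luc, SWNT/CpG against untreated called 5347 genes (3649 to 6536 in the other settings, 2772 to 5854 without 1 library), CpG 4498 genes (2543 to 5134 in the other settings, 1531 to 5172 without 1 library), CpG+SWNT/LP 4213 genes (2043 to 5786 in the other settings, 1454 to 4872 without 1 library) and SWNT/LP 16 genes (2 to 61 in the other settings, 0 to 27 without 1 library). There the test among all groups called 6406 genes (4865 to 8355 in the other settings, 5595 to 7185 without 1 library), SWNT/CpG against CpG 1847 genes (1352 to 3610 in the other settings, 1091 to 2392 without 1 library), against SWNT/LP 5173 genes (3905 to 6829 in the other settings, 3950 to 5883 without 1 library), against CpG+SWNT/LP 2194 genes (1177 to 4009 in the other settings, 1423 to 2808 without 1 library) and CpG+SWNT/LP against CpG 33 genes (5 to 201 in the other settings, 4 to 47 without 1 library). In RAW-Blue, SWNT/CpG against untreated called 2673 genes (899 to 2672 in the other settings, 1211 to 5952 without 1 library), CpG 1241 genes (125 to 1339 in the other settings, 357 to 5186 without 1 library), CpG+SWNT/LP 2332 genes (443 to 2322 in the other settings, 967 to 5500 without 1 library) and SWNT/LP 55 genes (1 to 151 in the other settings, 2 to 4207 without 1 library). There the test among all groups called 1888 genes (1772 to 2292 in the other settings, 953 to 6575 without 1 library), SWNT/CpG against CpG 97 genes (94 to 923 in the other settings, 0 to 1174 without 1 library), against SWNT/LP 1186 genes (1084 to 3501 in the other settings, 390 to 2939 without 1 library), against CpG+SWNT/LP 95 genes (92 to 832 in the other settings, 2 to 1340 without 1 library) and CpG+SWNT/LP against CpG 15 genes (2 to 176 in the other settings, 0 to 334 without 1 library). Between lines, the CpG response called 2926 genes (571 to 3014 in the other settings, 1301 to 4463 without 1 library), the SWNT/CpG response 3392 genes (1901 to 3830 in the other settings, 2019 to 4878 without 1 library) and the untreated comparison 10402 genes (6541 to 10458 in the other settings, 8632 to 10594 without 1 library).

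Replicate numbers were not taken as pairs in the main fits, since not every same-numbered pair deviated together (correlation over 0.1, in K-Luc after the run term). This is a strict rule, and in K-Luc such pairs deviated together more often than others. The main K-Luc fit may thus leave variation shared by a replicate number unmodelled. Same-numbered K-Luc libraries deviated together in 15 of 26 cases (median r 0.125) and differently numbered ones in 13 of 52 (median r -0.013). In RAW-Blue it was 4 of 20 and 6 of 20. Of the K-Luc libraries 9 of 14 correlated best with their own number. With the replicate block all 10 members were called among the K-Luc groups, Vegfb at adjusted p = 0.000987. SWNT/CpG then lowered 2 members in K-Luc, Hbegf at -0.34 (adjusted p = 1.45e-05) and Vegfb at -0.14 (adjusted p = 0.0186), and CpG gave Pdgfa -0.19 (adjusted p = 0.0605). Vegfa with SWNT/LP was 0.27 (adjusted p = 0.00127). Depth limited Pdgfc, Pdgfra and Pdgfrb in RAW-Blue, where 3 counts over a group of 2 libraries correspond to 0.0749 to 0.0834 CPM.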
